A study of Mus musculus with 12 samples.

Results

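Aminoacyl-tRNA synthetases are the enzymes that join each amino acid to its own transfer RNA (tRNA). The genes for 38 of them were described here across the femoral shafts of ethanol-gavaged and control mice with and without catalase. They were taken by gene name from the 17408 genes of the deposited normalized table, namely the 1-letter amino acid code followed by "ars", with or without a final 2, together with Eprs, Farsa, Farsb and Tarsl2. A name ending in 2 marks the mitochondrial enzyme. This gave 21 cytosolic and 17 mitochondrial genes. Tarsl2 was counted as cytosolic, since it encodes a threonyl-tRNA synthetase-like protein of the cytosol in spite of the 2 in its name. Gars and Kars, counted as cytosolic, each make both the cytosolic and the mitochondrial enzyme from 1 gene.

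Bulk RNA was sequenced from the femoral shafts of male mice aged 12 weeks, after marrow had been spun out of the bones. The 4 groups were Cat −/− (catalase knockout) mice given ethanol, Cat −/− mice given phosphate-buffered saline (PBS), Cat +/+ (wild-type) mice given ethanol and Cat +/+ mice given PBS. Ethanol was given by gavage at 3, 3, 4 and 4.5 g per kg body weight on consecutive days, from a 31.5% (v/v) solution, and PBS at the same volume. Tissue was taken 6 h after the last gavage. Each group had 3 libraries, each a pool of RNA from 2 mice, and libraries are called here by the numbers the submitters gave them, 4 to 6 for knockout ethanol, 1 to 3 for knockout PBS, 10 to 12 for wild-type ethanol and 7 to 9 for wild-type PBS. Nothing in the labels ties a library of one group to a library of another.

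The 12 libraries held 19950222 to 28789308 counts in genes. Cat itself, whose transcript is partly kept in the knockout, stood at 65.9 to 74.2 CPM (counts per 1000000, scaled with normalization factors) in the 6 knockout libraries, against 128 to 175 CPM in the 6 wild-type libraries. Skeletal muscle transcripts were uneven between libraries. The 16 muscle markers took 0.326% to 1.27% of the counts in knockout libraries, and 0.138%, 1.97% and 3.70% in wild-type ethanol libraries 10, 11 and 12, against 0.337%, 3.09% and 3.51% in wild-type PBS libraries 7, 8 and 9. Osteoblast markers took 1.14% to 2.57% of the counts in knockout ethanol libraries, against 3.55% to 4.18% in knockout PBS libraries, with no overlap, and 1.11% to 2.47% in wild-type ethanol libraries, against 2.26% to 2.86% in wild-type PBS libraries. All 8 osteoblast markers had negative log2 fold changes with ethanol in both genotypes, and 5 were called lower in the average over genotypes. Of all tested genes, 5.81% were called lower in that average. Transcripts of marrow cells remained, with neutrophil markers at 1.99% to 3.46% and erythroid markers at 1.01% to 2.08% of the counts. For all 7 erythroid markers every knockout PBS library lay above every wild-type PBS library, as for 8.98% of all tested genes. In such bulk tissue, fewer cells of a type and less RNA per cell cannot be told apart. Results were recomputed with the muscle markers as a covariate and without libraries 8, 9 and 12. The part of the osteoblast, neutrophil and erythroid shares in the results was not tested.

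Each synthetase reads the anticodon or other features of its tRNA and charges it, so that the ribosome adds the right amino acid. Cytosolic and mitochondrial protein synthesis use largely separate sets of nuclear-encoded synthetases. In the cytosol, 8 of the synthetase genes studied here encode members of the multisynthetase complex, which is held together by scaffold proteins. When the amino acid supply fails or the endoplasmic reticulum is stressed, kinases phosphorylate the initiation factor eIF2, the translation of most mRNAs falls, and the transcription factor ATF4 is made. In cultured cells ATF4 is known to drive genes of amino acid synthesis and import and a subset of the cytosolic synthetases. In bone, ATF4 is known for its part in collagen synthesis by osteoblasts, cells with a heavy demand for charged tRNA.

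Cytosolic synthetases were the more abundant set. Per kilobase of the principal transcript, the median level over the 12 libraries ran from 9.31 CPM (Tarsl2) to 59.1 CPM (Nars, the asparagine enzyme) among cytosolic genes, with a median gene at 24.6 CPM. Among mitochondrial genes it ran from 1.98 CPM (Wars2, the tryptophan enzyme) to 142 CPM (Lars2, the leucine enzyme), with a median gene at 6.83 CPM. Lars2 stood apart from the rest, since the next mitochondrial gene, Cars2 for cysteine, had 16.4 CPM per kilobase.

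After Lars2 and Nars, the highest median levels per kilobase belonged to Dars (aspartate) at 53.2 CPM, Vars (valine) at 45.5 CPM, Kars (lysine) at 44.9 CPM, Gars (glycine) at 44.5 CPM and Hars (histidine) at 41.5 CPM. Among these, the ranges over the libraries of Vars, Kars, Gars and Hars overlapped. The range of Dars overlapped those of Nars and Kars. The order of these genes is thus not settled by these values. At the low end, Nars2 (asparagine) had 2.56 CPM, Pars2 (proline) 2.38 CPM, Mars2 (methionine) 2.16 CPM and Wars2 1.98 CPM per kilobase, again with overlapping ranges. The place of Mars2 rests on its annotated length of 11294 bases. The lowest raw counts in any library, 89 for Pars2, 98 for Ears2 (glutamate) and 119 for Nars2, still passed the filter on low counts, as did all 38 genes.

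**Figure D1:**
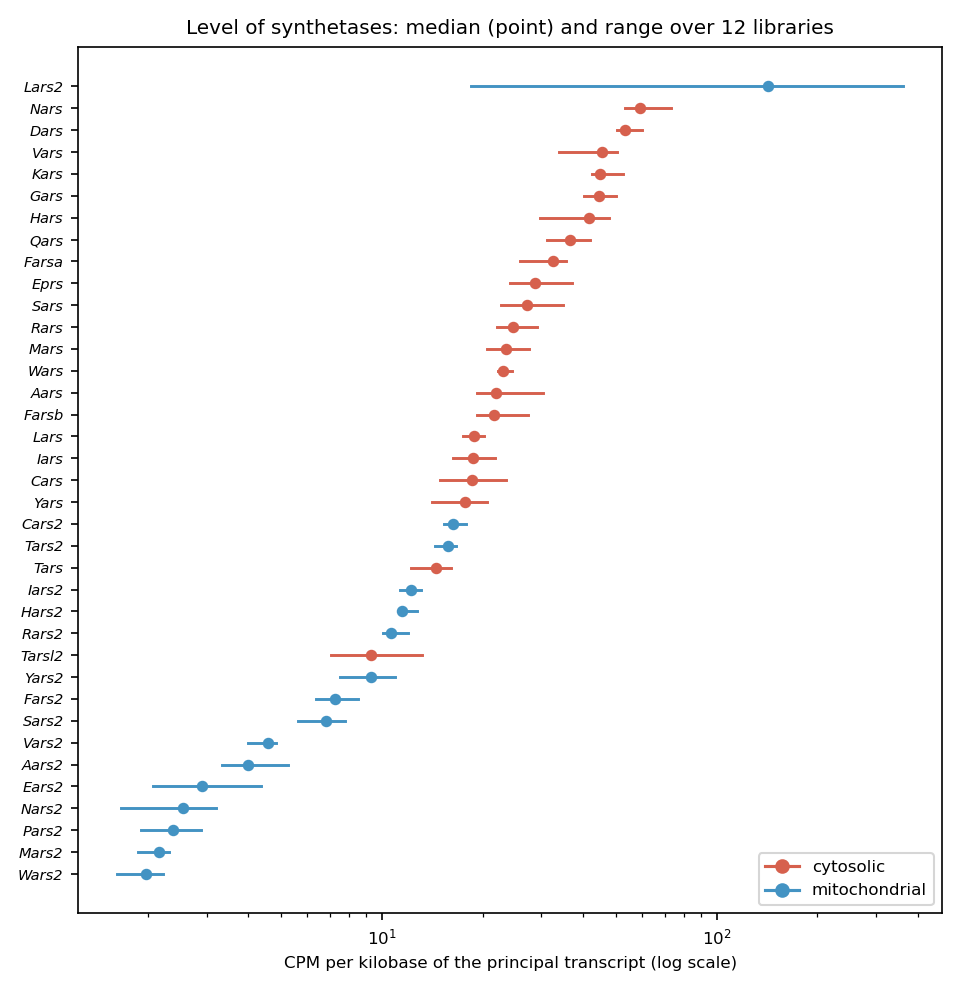
Level of 37 of the synthetases in CPM per kilobase of the principal transcript, on a log axis. Points are medians and lines the range over the 12 libraries, with cytosolic genes in red and mitochondrial genes in blue. Most red points lie right of the blue ones, and Lars2, at 142 CPM per kilobase, has by far the longest line.

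For 14 amino acids a cytosolic gene was paired by name with its mitochondrial counterpart. Threonine has a further cytosolic gene, Tarsl2, which was not added to Tars. Tarsl2 had a median of 9.305 CPM per kilobase, beside 14.55 CPM for Tars and 15.72 CPM for Tars2. Eprs, whose product serves both glutamate and proline, and Farsa and Farsb, 2 subunits of 1 enzyme, were not paired with Ears2, Pars2 and Fars2. In 11 of the 14 pairs the cytosolic gene was higher per kilobase in 12 of 12 libraries. The median ratio, cytosolic over mitochondrial, was 23.9 for Nars over Nars2, 11.6 for Mars over Mars2 and 11.4 for Wars over Wars2. It was 1.92 for Yars over Yars2 (tyrosine) and 1.55 for Iars over Iars2 (isoleucine). The exceptions were cysteine, threonine (Tars without Tarsl2) and leucine. Cars exceeded Cars2 in 8 of 12 libraries (median ratio 1.16), Tars exceeded Tars2 in 2 of 12 (0.923), and Lars exceeded Lars2 in 1 of 12 (0.159). Annotated transcript length enters these ratios, and a longer or shorter untranslated region in bone would move them. This weighs most on Mars over Mars2, with annotated lengths of 2939 and 11294 bases. Before division by length, Mars had 60.7 to 81.1 CPM and Mars2 21.1 to 26.1 CPM over the libraries.

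Most synthetases varied little between libraries. The highest library's CPM over the lowest library's was 1.1 for Wars, 2.11 for Ears2 and had a median of 1.35 over the 37 genes other than Lars2. For Lars2 it was 19.5.

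**Figure D2:**
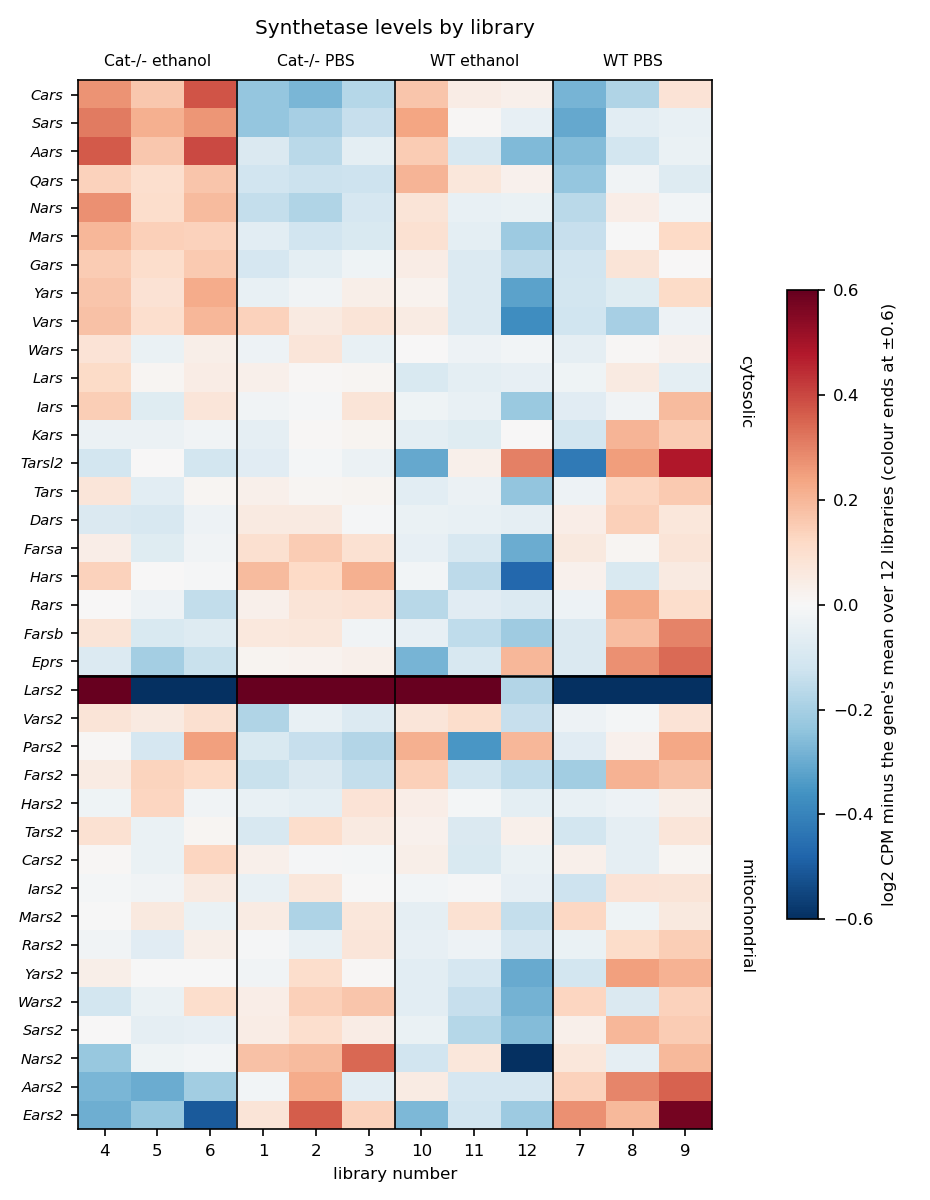
Level of 37 of the synthetases in every library as log2 CPM minus the gene's own mean over the 12 libraries, with groups in columns and the cytosolic genes above the mitochondrial ones. Red is above and blue below the gene's mean, with the colour ending at ±0.6. The knockout ethanol columns (libraries 4 to 6) are red for Aars, Cars, Nars and Sars, Ears2 is blue in all 6 ethanol columns, and Lars2 takes both ends of the scale within the knockout ethanol group.

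The effect of ethanol in the knockout compared 3 ethanol with 3 PBS libraries. Of 38 synthetases, 3 rose and 0 fell at an adjusted p under 0.05 (edgeR quasi-likelihood test with Benjamini-Hochberg adjustment over 18161 genes). All 3 were cytosolic, Cars, Sars and Nars, which charge the tRNAs for cysteine, serine and asparagine. Over all tested genes, 0.964% were called higher and 0.903% lower in this comparison, 1.87% in all.

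Cars (chr7:143557230-143600090, minus strand, GRCm38) had 70.4, 65.2 and 75.9 CPM in the 3 knockout ethanol libraries, against 49.7, 48.3 and 51.9 CPM in the 3 knockout PBS libraries. The lowest ethanol library stood above the highest PBS library by more than the whole range of the PBS group. The means were 70.5 ± 5.31 CPM with ethanol and 49.97 ± 1.82 CPM with PBS (SD, n = 3 each), a log2 fold change of 0.50 (SE 0.0896, edgeR adjusted p = 0.0209).

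Sars (chr3:108424865-108445209, minus strand) had 124, 116 and 121 CPM in knockout ethanol libraries, against 85.4, 87.3 and 90.9 CPM in knockout PBS libraries. The groups were tight and well apart. Its log2 fold change was 0.45 (SE 0.0858, edgeR adjusted p = 0.0240).

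Nars (chr18:64499647-64516652, minus strand) had 200.04, 178 and 189 CPM in knockout ethanol libraries, against 149.9, 146 and 154 CPM in knockout PBS libraries. Here too every ethanol library lay above every PBS library. Its log2 fold change was 0.33 (SE 0.0685, edgeR adjusted p = 0.0344).

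These calls sat near the threshold. Leaving out any of libraries 1, 2, 3, 4 or 6 took all 3 of Cars, Sars and Nars past an adjusted p of 0.05 (0.0630 to 0.162), while the log2 fold change stayed at 0.44 to 0.53 for Cars, 0.43 to 0.48 for Sars and 0.29 to 0.35 for Nars, and without wild-type ethanol library 11 Nars had an adjusted p of 0.0509. In the other direction, the count of synthetases called was 6 with DESeq2, 6 with muscle markers as a covariate, 9 with only the 6 knockout libraries in the fit and 8 without libraries 8, 9 and 12, which hold much muscle RNA.

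Further cytosolic genes had values in the same direction without passing the test, and those given next were chosen after their values were seen. Aars, the alanine enzyme, had 172, 149 and 175 CPM in knockout ethanol libraries, against 125, 119 and 128 CPM in knockout PBS libraries, a log2 fold change of 0.42 (SE 0.102, adjusted p = 0.0618). DESeq2 called it, with an adjusted p of 0.00604. Exons of Aars overlap Exosc6 on the same strand and Gm24103 on the opposite strand, and the part of their reads in the value of Aars was not tested. Qars, the glutamine enzyme of the multisynthetase complex, had 113, 109 and 115 CPM in knockout ethanol libraries, against 94.4, 93.3 and 93.8 CPM in knockout PBS libraries, a log2 fold change of 0.26 (SE 0.0654, adjusted p = 0.0666). The groups did not overlap for either gene.

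Mars, the methionine enzyme, had 81.1, 78.0 and 77.8 CPM in knockout ethanol libraries, against 67.6, 65.4 and 66.3 CPM in knockout PBS libraries (log2 fold change 0.25, adjusted p = 0.140). An exon of Mars overlaps Ddit3 on the opposite strand. Ddit3, a stress transcription factor, itself had 35.1, 35.9 and 43.2 CPM in knockout ethanol libraries, against 27.8, 24.8 and 27.8 CPM in knockout PBS libraries (edgeR adjusted p = 0.0327). The labels do not say whether the counting used strand, and the part of Ddit3 reads in the value of Mars was not tested.

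Gars, whose product serves both compartments, had 119, 115 and 119 CPM in knockout ethanol libraries, against 99.5, 102 and 105 CPM in knockout PBS libraries (log2 fold change 0.20, adjusted p = 0.147). Yars had 57.7, 54.7 and 60.0 CPM in knockout ethanol libraries, against 49.9, 50.6 and 52.7 CPM in knockout PBS libraries (0.17, adjusted p = 0.370). Dars, the aspartate enzyme and a member of the multisynthetase complex, lay on the other side, with 110.5, 109.8 and 115 CPM in knockout ethanol libraries, against 122, 122 and 117 CPM in knockout PBS libraries. None of Gars, Yars and Dars passed the test.

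In all, 8 cytosolic genes had every knockout ethanol library above every knockout PBS library, and 4 had every one below. The mitochondrial genes gave 2 above (Fars2 and Vars2, for phenylalanine and valine) and 4 below (Aars2, Ears2, Nars2 and Sars2). The shares of all tested genes with such separation were 16.3% above and 16.0% below. The cytosolic genes below were Dars, Eprs (glutamate and proline), Farsa (the alpha subunit of the phenylalanine enzyme) and Rars (arginine). The median log2 fold change was 0.035 over the 21 cytosolic genes and −0.0012 over the 17 mitochondrial genes, beside 0.000142 over all tested genes, so the cytosolic set held genes on both sides rather than a common shift.

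**Figure D3:**
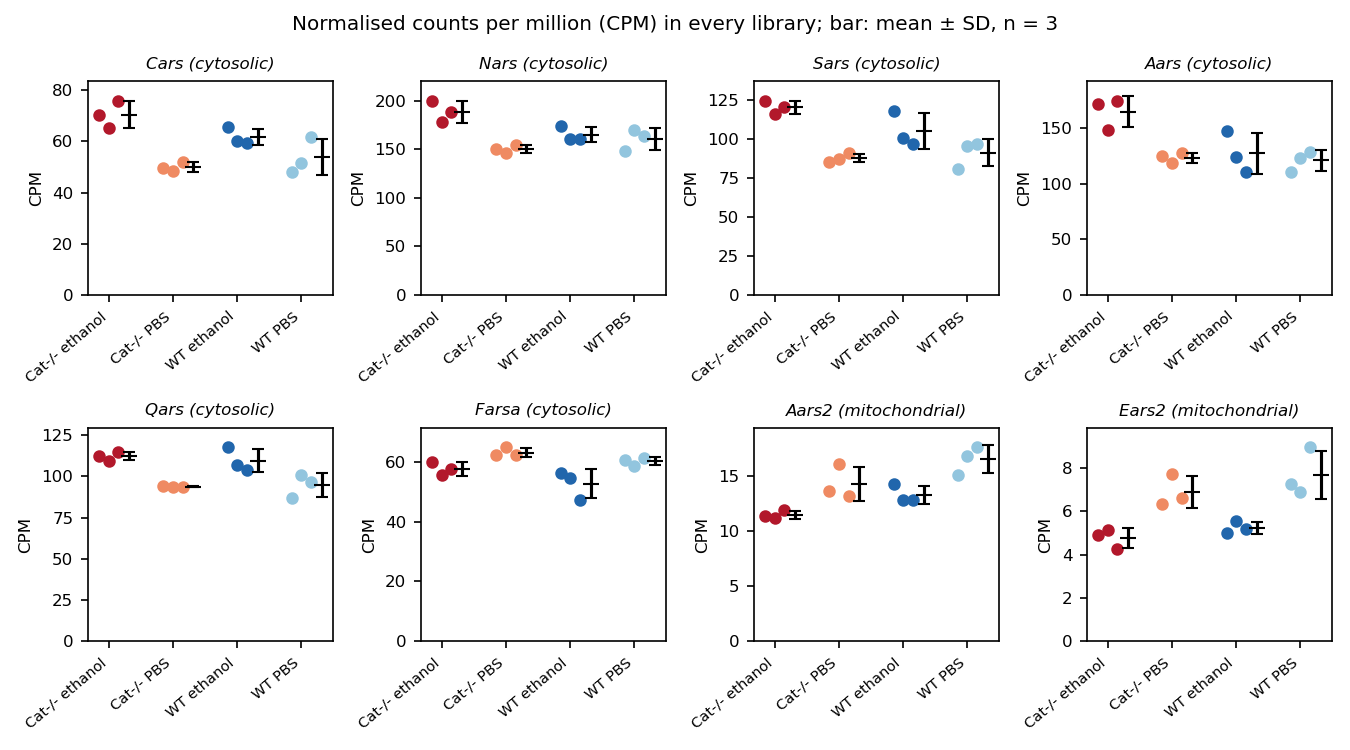
CPM of chosen synthetases in every library (points), with the mean ± SD of each group (n = 3). Cars, Sars and Nars lie higher in knockout ethanol than in knockout PBS libraries, Ears2 and Aars2 lie lower with ethanol in both genotypes, and each axis starts at 0.

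The 3 members called higher with ethanol in the knockout fall within a list of 13 cytosolic synthetases reported as ATF4 targets. This list was chosen with earlier results of these data known. Qars, called higher in the averaged comparison, is outside it. Of these 13, 11 had a positive log2 fold change with ethanol in the knockout, 3 were called higher and 0 lower, and the median was 0.17. Over all tested genes, 9085 were positive and 9076 negative, 0.964% were called higher and 0.903% lower, and the median was 0.000142. Of the other 8 cytosolic synthetases, 1 (Qars) was positive and 7 were negative, and the median was −0.0852. Of these 8, 0 were called by edgeR or limma-voom, while DESeq2 called Qars higher (adjusted p = 0.0106), as did edgeR with the muscle covariate (adjusted p = 0.0417). In wild-type mice the same 13 genes had 4 positive and 9 negative values, with 0 called and a median of −0.0531. Over all tested genes in wild type, 8413 were positive and 9748 negative, and the median was −0.0177. There 0.556% were called higher and 0.705% lower.

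Promoter sequence was examined since ATF4 binds, with C/EBP partners, a composite element with the letters TGATGNAA. RefSeq windows of 300 bases (250 before to 50 after the start, GRCm38.p6) were matched by symbol for 28 of the 38 genes, 14 cytosolic and 14 mitochondrial. The element was looked for on both strands. It lay in 5 of 14 cytosolic windows, or 35.7% (Aars, Gars, Iars, Tars and Yars), and in 0 of 14 mitochondrial genes, beside 4.51% of the 27025 genes in the table. A match of these letters is a description of the window and not a site shown to be bound. The 4 windows below show a cytosolic gene with 2 matches, one with 1 match, a gene that rose with no match, and the mitochondrial gene with the clearest fall, in capitals where the letters matched on either strand.
Aars, chr8:111033592-111033891, plus strand: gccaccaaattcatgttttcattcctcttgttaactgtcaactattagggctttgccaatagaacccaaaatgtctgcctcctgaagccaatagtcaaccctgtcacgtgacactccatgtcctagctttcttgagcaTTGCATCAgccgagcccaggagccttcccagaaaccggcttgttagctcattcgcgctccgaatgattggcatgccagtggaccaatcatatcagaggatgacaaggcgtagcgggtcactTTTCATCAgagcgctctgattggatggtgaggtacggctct
Gars, chr6:55037751-55038050, plus strand: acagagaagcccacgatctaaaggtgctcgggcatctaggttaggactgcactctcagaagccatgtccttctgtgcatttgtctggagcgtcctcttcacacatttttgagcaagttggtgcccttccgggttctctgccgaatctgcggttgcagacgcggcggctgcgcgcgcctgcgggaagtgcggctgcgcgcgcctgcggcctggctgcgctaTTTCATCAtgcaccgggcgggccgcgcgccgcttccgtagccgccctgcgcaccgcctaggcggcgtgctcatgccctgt
Sars, chr3:108445210-108445509, minus strand: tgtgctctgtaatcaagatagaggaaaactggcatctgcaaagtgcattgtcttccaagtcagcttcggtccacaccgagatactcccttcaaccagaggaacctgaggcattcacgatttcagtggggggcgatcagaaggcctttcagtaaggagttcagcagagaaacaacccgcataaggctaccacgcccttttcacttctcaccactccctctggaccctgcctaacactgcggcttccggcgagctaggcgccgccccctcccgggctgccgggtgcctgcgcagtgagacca
Ears2, chr7:122067037-122067336, minus strand: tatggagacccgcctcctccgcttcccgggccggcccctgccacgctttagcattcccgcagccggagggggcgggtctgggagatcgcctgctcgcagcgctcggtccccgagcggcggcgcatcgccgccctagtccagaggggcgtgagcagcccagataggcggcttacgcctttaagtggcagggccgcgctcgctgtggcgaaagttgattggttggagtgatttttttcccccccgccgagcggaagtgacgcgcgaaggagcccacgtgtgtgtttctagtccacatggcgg
Aars, Gars and Yars, each with a match, were among the 8 cytosolic genes whose knockout groups separated upward, and Iars and Tars, also with a match, were not. Mars and Qars, which also separated upward, and Sars, with a log2 fold change of 0.45, had no match in their windows. No window was examined for Cars and Nars, so of the 3 genes called in the knockout Sars alone could be searched. The windows follow RefSeq starts, which differ for some genes from the gene models whose coordinates are given here. The Sars window lies wholly upstream of its gene model (chr3:108424865-108445209, minus strand). Those of Aars and Qars lie wholly within theirs.

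The effect of ethanol in wild type was tested in the same fit. Of 38 synthetases, 0 were called in either direction by edgeR, beside 1.26% of all tested genes, 0.556% higher and 0.705% lower. DESeq2 called 1, Ears2, as lower, and limma-voom called 0. At an unadjusted p under 0.05, 4 synthetases were higher and 9 lower by edgeR. Over all tested genes 7.03% were higher and 8.98% lower at that level.

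Cars had 65.5, 60.3 and 59.6 CPM in wild-type ethanol libraries, against 48.1, 51.6 and 61.7 CPM in wild-type PBS libraries (log2 fold change 0.20, SE 0.0899, adjusted p = 0.304). Sars had 118, 101 and 97.0 CPM in wild-type ethanol libraries, against 81.0, 95.8 and 97.0 CPM in wild-type PBS libraries (0.21, SE 0.0859, adjusted p = 0.266). Nars had 174, 160.3 and 161 CPM in wild-type ethanol libraries, against 148, 170.04 and 163 CPM in wild-type PBS libraries (0.042, SE 0.0685, adjusted p = 0.817). For all 3 genes the wild-type groups overlapped, with PBS library 7 the lowest of its group. Library 7 is also the wild-type PBS library with little muscle RNA. In a fit without the 3 libraries with the most muscle RNA, library 7 was the only wild-type PBS library. There the log2 fold change averaged over genotypes was 0.45 for Cars, 0.45 for Sars and 0.26 for Nars. In the knockout it was 0.50, 0.46 and 0.33 in that fit. The averaged values were 0.35, 0.33 and 0.19 with all libraries, and again with muscle markers as a covariate. What sets these fits apart was not tested.

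Only Qars and Lars2 had every wild-type ethanol library above every wild-type PBS library, and 7 genes had every one below, namely Dars, Farsa, Rars, Tars, Aars2, Ears2 and Sars2. The shares of all tested genes were 7.32% above and 9.06% below. The median log2 fold change was −0.10 over cytosolic and −0.0848 over mitochondrial genes, beside −0.0177 over all genes.

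**Figure D4:**
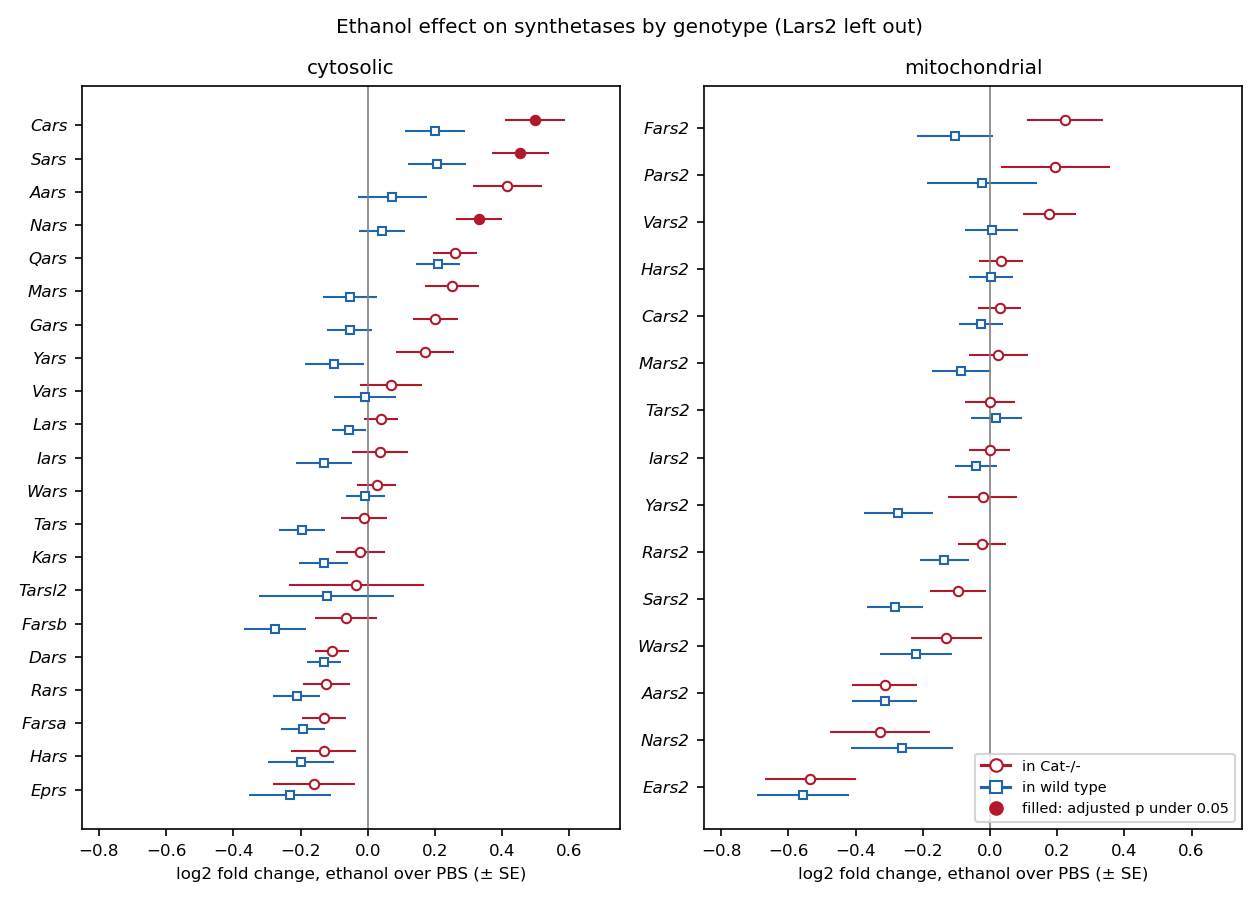
Log2 fold change of ethanol over PBS (± SE) for the 21 cytosolic and for 15 of the mitochondrial synthetases, Lars2 left out, in the knockout (circles) and in wild type (squares). Filled symbols passed an adjusted p under 0.05, which Cars, Sars and Nars did in the knockout and no gene did in wild type. For all 21 cytosolic genes the knockout symbol lies right of the wild-type one.

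Whether ethanol acted differently in the genotypes was tested by the interaction, the ethanol effect in the knockout minus that in wild type. By edgeR, DESeq2 and limma-voom 0 of 38 synthetases were called, and edgeR called 0 of all tested genes (0%), so no difference between genotypes was shown for any single member. With all 12 libraries in the fit, all 21 cytosolic genes and 14 of 17 mitochondrial genes had a positive value. Without the 3 libraries with the most muscle RNA, the ethanol effect averaged over genotypes lay near that in the knockout for Cars and Sars. It was 0.45 beside 0.50 for Cars, 0.45 beside 0.46 for Sars and 0.26 beside 0.33 for Nars, with 1 wild-type PBS library left. The following values are again from all 12 libraries. Over all tested genes 10157 were positive and 8004 negative. The medians were 0.109 for cytosolic, 0.0693 for mitochondrial and 0.0213 for all genes. Positive values also prevailed in 70 of 78 mitochondrial ribosomal protein genes (median 0.118), 11 of 13 mitochondrial translation factors and 14 of 16 muscle markers. Of the osteoblast, osteoclast and B cell markers, 0 of 8, 0 of 6 and 0 of 6 were positive. A lean to one side was thus not particular to the synthetases. At an unadjusted p under 0.05, 5 cytosolic genes were higher (Nars, Gars, Mars, Aars and Cars, with log2 values of 0.26 to 0.34 and each with an adjusted p of 1) and 1 mitochondrial gene, Lars2, was lower, beside 0.920% of all genes higher and 1.06% lower. The values of the cytosolic genes are not independent, since they were measured in the same 12 libraries.

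Averaged over both genotypes, the effect of ethanol had the most calls. Here 7 synthetases passed, 4 higher and 3 lower, beside 5.02% of all tested genes called higher and 5.81% lower, 10.8% in all. The genes that rose were cytosolic, Cars, Sars, Qars and Nars. Those that fell were the cytosolic Farsa and the mitochondrial Aars2 and Ears2, for alanine and glutamate. Cars rose by a log2 fold change of 0.35 (SE 0.0635, edgeR adjusted p = 0.00679), Sars by 0.33 (SE 0.0607, adjusted p = 0.00712), Qars by 0.23 (SE 0.0463, adjusted p = 0.00976) and Nars by 0.19 (SE 0.0484, adjusted p = 0.0314). In wild type, Qars had 118, 107 and 104 CPM with ethanol, against 87.0, 101 and 96.8 CPM with PBS, again with no overlap.

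Farsa had 59.9, 55.4 and 57.4 CPM in knockout ethanol libraries, against 62.3, 64.8 and 62.1 CPM in knockout PBS libraries, and 56.3, 54.4 and 47.3 CPM in wild-type ethanol libraries, against 60.7, 58.7 and 61.4 CPM in wild-type PBS libraries. The groups did not overlap in either genotype, and the fall was small, with an averaged log2 fold change of −0.16 (SE 0.0466, edgeR adjusted p = 0.0459). The call was lost in 11 of 12 fits that left out 1 library. Farsb, the beta subunit of the same enzyme, had an averaged log2 fold change of −0.17 (SE 0.0650, adjusted p = 0.118).

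The mitochondrial enzymes of glutamate, alanine and serine were the ones with the lowest adjusted p in their class. Ears2 (chr7:122037213-122067263, minus strand) charges mitochondrial tRNA with glutamate, including the tRNA for glutamine, which a further enzyme then amidates. It had 4.90, 5.13 and 4.23 CPM in knockout ethanol libraries, against 6.33, 7.71 and 6.61 CPM in knockout PBS libraries. In wild type it had 4.98, 5.54 and 5.16 CPM with ethanol, against 7.25, 6.86 and 8.94 CPM with PBS. In both genotypes each ethanol library lay below each PBS library. The log2 fold change was −0.53 in the knockout (SE 0.136, adjusted p = 0.0682), −0.56 in wild type (SE 0.137, adjusted p = 0.0763) and −0.54 averaged (SE 0.0967, edgeR adjusted p = 0.00592), and the interaction was 0.020 (SE 0.194). An exon of Ears2 overlaps Ubfd1 on the opposite strand.

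Aars2 (chr17:45506841-45520843, plus strand) charges mitochondrial tRNA with alanine. It had 11.4, 11.2 and 11.9 CPM in knockout ethanol libraries, against 13.6, 16.0 and 13.1 CPM in knockout PBS libraries, and 14.2, 12.8 and 12.8 CPM in wild-type ethanol libraries, against 15.1, 16.8 and 17.5 CPM in wild-type PBS libraries. The groups were apart in both genotypes. The averaged log2 fold change was −0.31 (SE 0.0686, edgeR adjusted p = 0.0152). Without libraries 8, 9 and 12 it was −0.23 with an adjusted p of 0.125.

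Sars2 (chr7:28741992-28753871, plus strand), the mitochondrial serine enzyme, had 12.6, 12.1 and 12.2 CPM in knockout ethanol libraries, against 13.0, 13.5 and 13.0 CPM in knockout PBS libraries, and 12.3, 11.2 and 10.5 CPM in wild-type ethanol libraries, against 12.9, 14.5 and 14.0 CPM in wild-type PBS libraries. Every ethanol library was below every PBS library of its genotype. It did not pass the test (averaged log2 fold change −0.19, SE 0.0589, adjusted p = 0.0628). The cytosolic and the mitochondrial serine enzymes thus had averaged values of opposite sign, and so did those of alanine, for which Aars had 0.24 (SE 0.0722, adjusted p = 0.0510). These pairs were picked out after their values were seen, and neither Sars2 nor Aars passed. The signs over all pairs are not given here.

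Nars2, for asparagine, had 8.11, 9.33 and 9.38 CPM in knockout ethanol libraries, against 10.7, 10.8 and 12.1 CPM in knockout PBS libraries, and its wild-type groups overlapped (averaged log2 fold change −0.29, SE 0.107, adjusted p = 0.102). The other 12 mitochondrial genes apart from Lars2 were not called. Cars2 stayed at 29.3 to 34.0 CPM over the 12 libraries, Iars2 at 62.1 to 71.5 CPM and Tars2 (threonine) at 34.6 to 40.1 CPM. The averaged log2 fold changes of the 12 lay between −0.18 for Wars2 (adjusted p = 0.164) and 0.091 for Vars2 (adjusted p = 0.334). Among cytosolic genes, Wars stayed at 40.7 to 44.7 CPM and Lars at 69.7 to 80.3 CPM.

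Of the 17 mitochondrial genes, 8 had a positive and 9 a negative averaged log2 fold change, with a median of −0.0208, beside 10 positive and 11 negative and a median of −0.00827 for the cytosolic genes and a median of −0.0088 over all tested genes. The cytosolic median minus the mitochondrial one was 0.0125 for the averaged ethanol effect, 0.0362 for ethanol in the knockout and −0.0154 for ethanol in wild type. The classes thus hardly differed in their median. In the averaged comparison 4 cytosolic genes were called higher and 1 lower, and 0 mitochondrial genes higher and 2 lower. The shares of all tested genes were 5.02% higher and 5.81% lower. Calls depend on level too, and the median gene had 24.6 CPM per kilobase among cytosolic and 6.83 CPM among mitochondrial genes. The calls alone therefore do not measure a difference between the classes.

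Lars2 (chr9:123366927-123462666, plus strand), the mitochondrial leucine enzyme, varied far more between libraries than any other synthetase. It had 1288, 71.8 and 80.5 CPM in knockout ethanol libraries 4, 5 and 6, against 796, 826 and 1077 CPM in knockout PBS libraries, and 852, 1401 and 312 CPM in wild-type ethanol libraries 10, 11 and 12, against 84.6, 167 and 132 CPM in wild-type PBS libraries. The 7 libraries at 312 CPM or more were 1 of 3 knockout ethanol, 3 of 3 knockout PBS, 3 of 3 wild-type ethanol and 0 of 3 wild-type PBS libraries. Its log2 fold change with ethanol was −0.91 in the knockout (SE 1.06, adjusted p = 0.768) and 2.74 in wild type (SE 1.12, adjusted p = 0.277), and neither passed. It took 3.1% to 39.8% of all synthetase counts in a library, so that the sum over the 38 genes was 0.219% to 0.38% of a library with Lars2 and 0.193% to 0.246% without it.

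The same 7 libraries were the 7 highest for 3 genes outside the synthetases. Gm42418, a predicted gene that overlaps a ribosomal RNA repeat, had 1187 to 5190 CPM in those 7 libraries and 429 to 664 CPM in the other 5. Gm15564 had 16.8 to 78.1 CPM in the 7 and 2.48 to 6.96 CPM in the other 5, and Rpph1, the RNA subunit of RNase P, had 2.53 to 12.4 CPM in the 7 and 1.01 to 1.89 CPM in the other 5. In the transcript annotation, the 3′ untranslated region of Lars2 (bases 2909 to 3894 of its 3894-base principal transcript) shares 52 identical bases, 3278 to 3329, with a transcript of Gm15564 and 41 bases, 3172 to 3212, with AA474408. AA474408 had at most 2.31 CPM and did not vary in this way. Gm15564 and AA474408 were the only other genes with an annotated transcript sharing 31 or more bases, on either strand, with this Lars2 transcript. Gm42418 was thus not among them. Reads from such shared sequence could be split between the genes in counting, so the level of Lars2 is uncertain, and the part of Gm42418-like RNA in it was not tested.

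**Figure D5:**
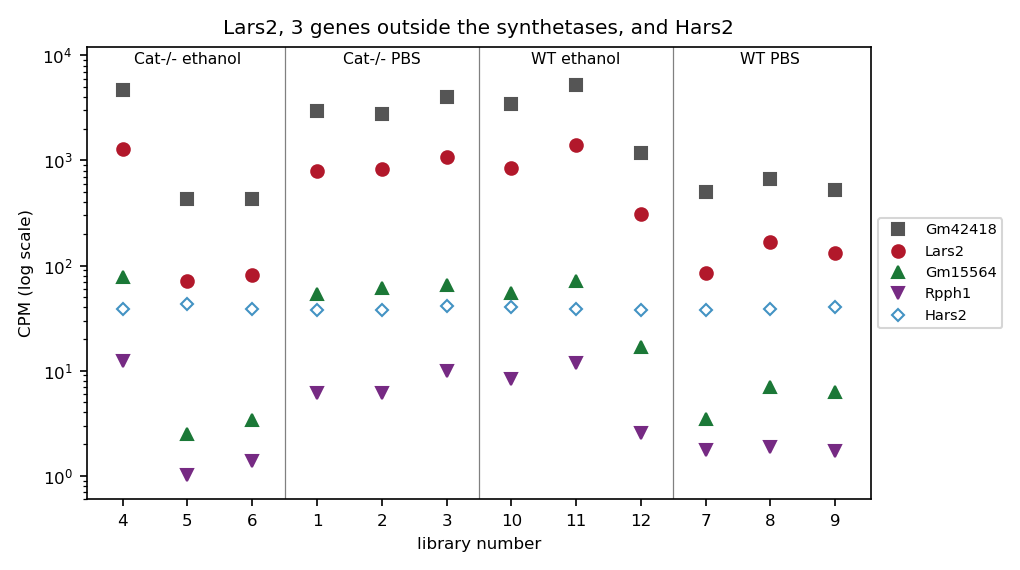
CPM of Lars2, of Gm42418, Gm15564 and Rpph1 and of Hars2 in every library, on a log axis, with the groups in the order knockout ethanol, knockout PBS, wild-type ethanol and wild-type PBS. The first 4 genes are high in the same 7 libraries and low in the other 5, while Hars2 lies at 37.5 to 42.6 CPM throughout.

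No other synthetase had a range near that of Lars2, since the highest over the lowest library's CPM was at most 2.11 (Ears2). Every wild-type ethanol and every knockout PBS library was among those high in Gm42418, and no wild-type PBS library was. This state thus cannot be told apart from the ethanol effect in wild type or the knockout effect under PBS, and it enters the interaction. Knockout ethanol library 4 was high in Gm42418 and libraries 5 and 6 were low. In all 3 of these libraries Cars, Sars and Nars lay above and Ears2 below the knockout PBS group. With log2 Gm42418 as a covariate, a fit added after the data were seen, 0 synthetases were called for ethanol in the knockout. Cars then had a log2 fold change of 0.51 (adjusted p = 0.141), Sars 0.51 (adjusted p = 0.106) and Nars 0.39 (adjusted p = 0.106), and the averaged ethanol effect had 7 calls.

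Knockout and wild type were then compared under each treatment. Under ethanol, 0 of 38 were called by edgeR, DESeq2 or limma-voom, beside 0.0110% of all tested genes. At an unadjusted p under 0.05, 9 cytosolic and 0 mitochondrial genes were higher and 0 were lower, beside 4.16% of all genes higher and 1.62% lower at that level. Under ethanol 18 of 21 cytosolic and 14 of 17 mitochondrial genes had a positive log2 fold change, knockout over wild type, with medians of 0.128 and 0.0445 beside −0.0043 over all genes. In this comparison 8 cytosolic genes (Aars, Gars, Hars, Lars, Mars, Nars, Vars and Yars) and Yars2 had every knockout ethanol library above every wild-type ethanol library, and Aars2 had every one below. The shares of all tested genes with such separation were 7.12% above and 4.04% below.

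Aars had the lowest unadjusted p of these, with a log2 fold change of 0.37 under ethanol (unadjusted p = 0.00344, edgeR adjusted p = 0.820). Vars, the valine enzyme, had 205, 195 and 208 CPM in knockout ethanol libraries, against 188, 172 and 140.2 CPM in wild-type ethanol libraries, and 199.7, 188 and 191 CPM in knockout PBS libraries, against 167, 158 and 178 CPM in wild-type PBS libraries. Its knockout libraries lay above the wild-type ones under both treatments, with an averaged log2 fold change of 0.24 (edgeR adjusted p = 0.328). DESeq2 called it in the averaged comparison (adjusted p = 0.0293), the single synthetase call of any tool there, and edgeR and limma-voom called 0, beside 0.0110% of all genes by edgeR. At an unadjusted p under 0.05, 4 cytosolic genes were higher and 1 mitochondrial gene was lower by edgeR, beside 7.21% of all genes higher and 7.06% lower. Wild-type ethanol library 12, with a muscle share of 3.70%, was the lowest of its group for Vars, Hars, Aars, Mars and Yars.

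Under PBS, 0 of 38 synthetases were called between knockout and wild type by the same 3 tools, beside 0.0110% of all tested genes. At an unadjusted p under 0.05, 1 cytosolic gene (Vars) and 1 mitochondrial gene (Lars2) were higher and 0 were lower, beside 3.30% of all genes higher and 4.14% lower. Farsa, Hars, Vars and Lars2 had every knockout PBS library above every wild-type PBS library, and Pars2 and Vars2 had every one below, beside 8.98% above and 5.16% below over all genes. The medians were −0.0509 for cytosolic and −0.066 for mitochondrial genes.

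Eprs and Tarsl2 differed more within wild type than between groups. Tarsl2 had 28.0, 30.3 and 28.0 CPM in knockout ethanol libraries, against 28.9, 29.9 and 29.5 CPM in knockout PBS libraries, and 24.4, 30.8 and 37.2 CPM in wild-type ethanol libraries, against 22.5, 36.0 and 42.2 CPM in wild-type PBS libraries. Its highest values were in libraries 8, 9 and 12, which had the most muscle RNA, and so were those of Eprs, with 173, 181 and 165 CPM there.

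The genes around the synthetases in the same pathways were examined as lists. Among 31 other ATF4 targets, which act in amino acid synthesis and transport and in stress, ethanol in the knockout raised 8 and lowered 2, with a median log2 fold change of 0.36. In that comparison 0.964% of all tested genes were called higher and 0.903% lower. Trib3, a pseudokinase, rose by 3.02 (SE 0.329, edgeR adjusted p = 0.00358). Asns, which makes asparagine, the amino acid that Nars joins to tRNA, rose by 1.27 (SE 0.136, adjusted p = 0.00358). Aldh1l2, a mitochondrial folate enzyme, changed by −1.45 and Pycr1, of proline synthesis, by −0.96. In wild type the list had 1 gene higher, Asns by 0.64 (SE 0.136, adjusted p = 0.0494), and 1 lower, Pycr1 by −0.87 (adjusted p = 0.0298), with a median of 0.066. There 0.556% of all tested genes were called higher and 0.705% lower. The interaction called 0 genes of the list by edgeR, and Trib3 had a log2 value of 2.09 there (unadjusted p = 0.000705, adjusted p = 1).

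Atf4 mRNA had 223, 206 and 211 CPM in knockout ethanol libraries, against 184, 191 and 202 CPM in knockout PBS libraries, and 194, 191 and 178 CPM in wild-type ethanol libraries, against 187, 198 and 212 CPM in wild-type PBS libraries. It did not pass the test in the knockout (log2 fold change 0.15, adjusted p = 0.280). Its knockout groups did not overlap, as in 16.3% of genes.

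Within the multisynthetase complex, edgeR called 0 of 8 synthetases in the knockout and 1, Qars, in the averaged comparison. Over all tested genes edgeR called 1.87% in the knockout, and 5.02% higher and 5.81% lower in the averaged comparison. DESeq2 called Qars in both, and in the averaged comparison it also called Dars (−0.11, adjusted p = 0.0257) and Rars (−0.16, adjusted p = 0.0466) lower. Of its 3 scaffold genes, 1 fell in the averaged comparison, Eef1e1 by a log2 fold change of −0.39 (SE 0.0875, edgeR adjusted p = 0.0176). All 3 synthetases that rose with ethanol in the knockout belong to the 13 cytosolic genes outside the complex. Of 12 genes of eIF2 signalling, the averaged comparison raised 1, Ppp1r15b, by 0.27 and lowered 1, Eif2s1, the alpha subunit of eIF2, by 0.20, and in the knockout 0 were called by edgeR. Of 4 genes that edit mischarged tRNA, 0 were called by edgeR in the averaged comparison. Among 9 cytosolic elongation factor genes, the averaged comparison lowered 1, Eif5a, by −0.20.

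On the mitochondrial side, partners of the synthetases were called in both directions in the averaged comparison, in which edgeR called 5.02% of all tested genes higher and 5.81% lower. Guf1, a mitochondrial elongation factor, rose by 0.16. Qrsl1, a subunit of the amidotransferase that turns glutamate into glutamine on the tRNA charged by Ears2, fell by 0.48 on the log2 scale (SE 0.0811, edgeR adjusted p = 0.00478), and it was the single gene of 3 in that complex to be called. Of 11 genes of mitochondrial tRNA processing, 2 fell, Pus1 by 0.31 and Elac2 by 0.26. Of 78 mitochondrial ribosomal protein genes, 9 fell and 0 rose, among them Mrps28 by 0.48 and Mrpl54 by 0.44, with a median of −0.0859. The mean log2 CPM of these 78 genes was 4.70 in library 12 (wild-type ethanol), 4.94 in library 8 and 4.88 in library 9 (both wild-type PBS), the libraries with the most muscle RNA, and 4.55 to 4.67 in the other 9, and the part of muscle RNA in this list's values was not tested. Tsfm, a mitochondrial elongation factor, was the 1 of 13 mitochondrial translation factors called in wild type, at −0.44 (SE 0.0788, edgeR adjusted p = 0.0300). In wild type 0.705% of all tested genes were called lower. Of the 13 protein genes of the mitochondrial genome 0 were called in any of the 3 ethanol comparisons by edgeR. All 13 had a negative log2 fold change in wild type (median −0.575) and in the average (−0.356), and 12 did in the knockout (−0.148). Their summed CPM was 70094, 56657 and 52576 in libraries 8, 9 and 12, against 21235 to 28703 in the other 9. The part of muscle RNA in these values was not tested.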

How the data were processed

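Femoral shaft RNA was sequenced in 12 libraries, 3 in each of 4 groups, each library pooling 2 mice. Per the submitters' processing notes, the tools were Trimmomatic 0.36, STAR 2.5.2b and featureCounts of Subread 1.5.2, with GRCm38. Its strand and multi-mapping settings are not stated there. The authors deposited a table of raw counts for 49315 gene IDs and a normalized signal table for 17408 genes, in which every column was the deposited counts divided by 1 factor per library. The deposited normalized signal gave gene names only.

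Counts were tested with edgeR 4.0.16 (quasi-likelihood, TMM factors 0.908 to 1.05) in R 4.3.3, with 4 group means and 8 residual degrees of freedom, over 18161 genes passing filterByExpr (minimum count 10, minimum total 15). p-values were Benjamini-Hochberg adjusted over all of them, with calls at under 0.05. CPM values use the TMM factors. limma-voom (limma 3.58.1) and DESeq2 1.42.0 were alternatives, and the fit was tested on simulated data. The 7 comparisons share libraries. Log2 fold changes carry standard errors and levels carry SDs. Nothing says whether pooled libraries are separate experiments, so p-values measure the spread between these libraries. Exons of 15 of the 38 genes overlap another gene, on the same strand for 2 of them, Aars and Tarsl2.

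The members and lists were chosen with earlier results of these data known. Values were to be given in full for called members and for the 3 mitochondrial genes with the lowest averaged p. Other genes in the text were chosen after their values were seen. The values of 1 mitochondrial gene are not reported here by themselves or drawn, though it is in all counts.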

Additional observations from a re-analysis of the deposited data

How the results depend on the processing

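Ethanol called 3 synthetases in the knockout, and the count was 6 (5 higher, 1 lower) with the muscle markers as a covariate, 6 (5 higher, 1 lower) with DESeq2, 9 (7 higher, 2 lower) with the 2 groups alone, 8 (7 higher, 1 lower) without libraries 8, 9 and 12, and 0 with log2 Gm42418 as a covariate, an alternative added after the data were seen. Without 1 library at a time it was 0 to 4. In wild type the count of 0 became 1 with DESeq2 and was 0 to 1 without 1 library at a time. For the averaged ethanol effect the count of 7 became 12 (5 higher, 7 lower) with the muscle covariate, against 8 (7 higher, 1 lower) without libraries 8, 9 and 12, and was 5 to 12 without 1 library at a time. For the averaged knockout effect the count of 0 became 1 with DESeq2. The cytosolic median minus the mitochondrial one in the interaction was 0.0396, became 0.284 with the Gm42418 covariate, and ran from 0.0238 to 0.156 without 1 library at a time. The cause was not tested. No synthetase changed sign in a comparison in which edgeR had called it. The class difference in medians, which has no test, did change sign without 1 library at a time for the averaged ethanol effect (0.0125, range −0.00903 to 0.0234) and for the knockout effect under PBS (0.0151, range −0.0314 to 0.0307). The averaged call of Nars was lost in 6 of 12 fits without 1 library (adjusted p 0.0614 to 0.0874). Counting Tarsl2 as mitochondrial and leaving out Lars2 were also tried, after the data were seen. No paired analysis was possible because the library numbers run from 1 to 12 and no groups share one. With 3 libraries a group, precision was lowest for Lars2 and Tarsl2, followed by Pars2 and Nars2, which have few counts.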
